A study of Mus musculus with 4 samples.

Results

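The 8 miRNAs studied here are best known from blood and blood vessels: mmu-miR-126-3p, mmu-miR-126-5p, mmu-miR-142-3p, mmu-miR-142-5p, mmu-miR-150, mmu-miR-155, mmu-miR-223 and mmu-miR-451. Their levels were read in RNA of purified mouse Sertoli cells. They were chosen by name, as miRNAs of leukocytes, red cells and vessels, and are 8 of the 567 mouse miRNAs on the array, of which 298 were detected on at least 1 array. Sertoli cells line the seminiferous tubule and nurse the germ cells. The RNA came from adult B6129 males in 3 groups and was read on 4 Agilent miRNA arrays of 1 color each. Sham mice (labelled Kb102 control, 1 array) carried a Silastic tube under the skin and were injected with saline. Flut+Acy mice (labelled Kb102 flutamide, 2 arrays) received flutamide, which blocks the androgen receptor, through such an implant, and were injected with acyline, which blocks the receptor for gonadotropin-releasing hormone. Flut+Acy+T mice (labelled Kb102 Testosterone, 1 array) received both drugs and a testosterone implant. The labels name neither acyline nor the implants, which are taken from the methods. Each RNA was pooled from several mice, and no source used here says whether separate pools went onto the Flut+Acy arrays, so their spread may be technical. A miRNA array has no probes for the mRNAs that mark Sertoli cells, so the purity of the cells could not be checked in that way.

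miR-126-3p and miR-126-5p are the arms of 1 hairpin that lies in an intron of Egfl7 and is abundant in endothelium. miR-142-3p and miR-142-5p are likewise made from 1 hairpin, which is active across the blood lineages, while miR-150 is typical of mature lymphocytes, miR-155 of activated leukocytes and miR-223 of neutrophils and other myeloid cells. miR-451 is made in red cell precursors from a transcript shared with miR-144. Its hairpin is too short for Dicer and is cut by the Argonaute protein Ago2 instead. In bulk RNA of this kind, fewer cells of a type and less RNA per cell cannot be told apart.

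The mature sequences are shown because each array probe reads 1 mature arm, and because the seed, which pairs with target mRNAs, tells which members could share targets. RefSeq (GRCm38.p6) held the mature sequence of 6 of the 8 members, given here 5′ to 3′ with bases 2 to 8, the seed, in capitals. The 6 seeds were all different.
mmu-miR-126-3p: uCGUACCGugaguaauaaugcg
mmu-miR-142-3p: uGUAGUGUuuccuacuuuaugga
mmu-miR-142-5p: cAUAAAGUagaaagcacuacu
mmu-miR-155: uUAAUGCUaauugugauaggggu
mmu-miR-223: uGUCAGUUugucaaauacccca
mmu-miR-451: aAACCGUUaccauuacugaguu

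In the same build, the mature miR-126-3p lies at chr2:26591402-26591423, within Egfl7. The arms of miR-142 lie at chr11:87756867-87756887 (5p) and chr11:87756903-87756925 (3p). miR-155 lies at chr16:84714143-84714165, within the noncoding gene Mir155hg, and miR-223 at chrX:96242884-96242905, within the noncoding gene F630028O10Rik. miR-451 lies at chr11:78073186-78073207, with Mir144 less than 1 kb away, and all 6 are on the plus strand. For miR-126-5p and miR-150 the array files, which use the earlier build mm9, place the stretch read by the probes at positions 26446885 to 26446905 of chromosome 2 and 52377138 to 52377153 of chromosome 7.

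Both hairpins on chromosome 11 are shown for where their mature miRNAs sit, marked by capitals. The Mir142 hairpin (chr11:87756864-87756927) carries a member on each arm. In the Mir451a hairpin (chr11:78073170-78073241) the mature miRNA runs from the 5′ arm into the loop, and there is no second arm product among the members.
Mir142: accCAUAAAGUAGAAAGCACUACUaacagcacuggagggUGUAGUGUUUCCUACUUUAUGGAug
Mir451a: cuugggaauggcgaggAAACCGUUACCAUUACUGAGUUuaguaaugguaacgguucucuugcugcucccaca

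The arrays differed in brightness and in noise. Summed over all mouse miRNAs, the positive total signals came to 57940 units on Sham, to 139602 and 161460 units on the Flut+Acy pair, and to 201919 units on Flut+Acy+T. Negative control spots (672 per array) varied with an SD of 2.72 to 7.45 units on the Sham and Flut+Acy arrays and of 1326 units on Flut+Acy+T. The dimmest miRNA that the Flut+Acy+T array detected had a total signal of 238 units. The Flut+Acy arrays gave closely similar values (r = 0.997 of log2 total signals over 189 miRNAs, which are no independent replicates). Total signal is the scanner software's sum over a miRNA's probes after background subtraction, and can fall below 0. Each member was read by 2 probes with 10 spots each.

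The arrays differed in how many members they detected. Sham detected 5 of the 8 (miR-126-3p, miR-126-5p, miR-142-3p, miR-223 and miR-451) and not miR-142-5p, miR-150 or miR-155. The first Flut+Acy array detected all 8, and the second detected 7, without miR-142-5p. Flut+Acy+T detected miR-126-3p and none of the other 7. Counts over all 567 mouse miRNAs ranked the arrays alike, so this order was not particular to the members. The first Flut+Acy array detected 275 (48.5%), the second 270 (47.6%), Sham 193 (34.0%) and Flut+Acy+T 102 (18.0%).

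Of the endothelial pair, miR-126-3p was detected on every array. Its total signal was 636 units on Sham, 1949 and 2112 with Flut+Acy and 4013 with Flut+Acy+T, with scanner errors of 47.3, 146, 154 and 317 units. All 3 arrays of treated mice were above Sham, with the testosterone array highest. The other arm, miR-126-5p, gave 13.2 units on Sham (error 2.71) and 36.6 and 42.8 on Flut+Acy (errors 4.13 and 5.29), and -65.9 on Flut+Acy+T with an error of 123. Both Flut+Acy arrays were thus above Sham, and the testosterone array did not detect this arm.

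Among the leukocyte miRNAs, miR-142-3p gave 42.3 units on Sham (error 4.03), 116 and 126 with Flut+Acy (errors 9.40 and 10.2) and 241 with Flut+Acy+T (error 125, not detected). Its partner miR-142-5p gave 3.35 units on Sham and 11.3 and 12.9 on Flut+Acy, with errors of 2.48 to 3.98, and was at the edge of detection. The myeloid miR-223 gave 85.1 units on Sham (error 7.76), 133 and 150.4 with Flut+Acy (errors 11.5 and 12.7) and 264 with Flut+Acy+T (error 125, not detected). The values of miR-142-3p and miR-223 were ordered alike, with Sham lowest, but the step from Sham to Flut+Acy was smaller for miR-223 than for miR-142-3p. miR-142-5p gave -126 units on Flut+Acy+T (error 123, not detected). The lymphocyte miR-150 gave 3.93 units on Sham and 9.51 and 15.05 on Flut+Acy, and miR-155 gave 4.35 on Sham and 8.62 and 12.9 on Flut+Acy. Neither was detected on Sham or on Flut+Acy+T, where their errors were 124 units each.

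The red cell miRNA, miR-451, gave 102 units on Sham (error 7.89), 111 and 128 with Flut+Acy (errors 8.54 and 10.1) and 290 with Flut+Acy+T (error 125, not detected). It was nearly level between Sham and Flut+Acy while the arrays as a whole became much brighter. By rank of signal, which is what quantile normalization uses and is no measure of relative amount, it stood above 87.8% of the mouse miRNAs on Sham and above 79.0 and 79.9% on Flut+Acy.

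**Figure D1:**
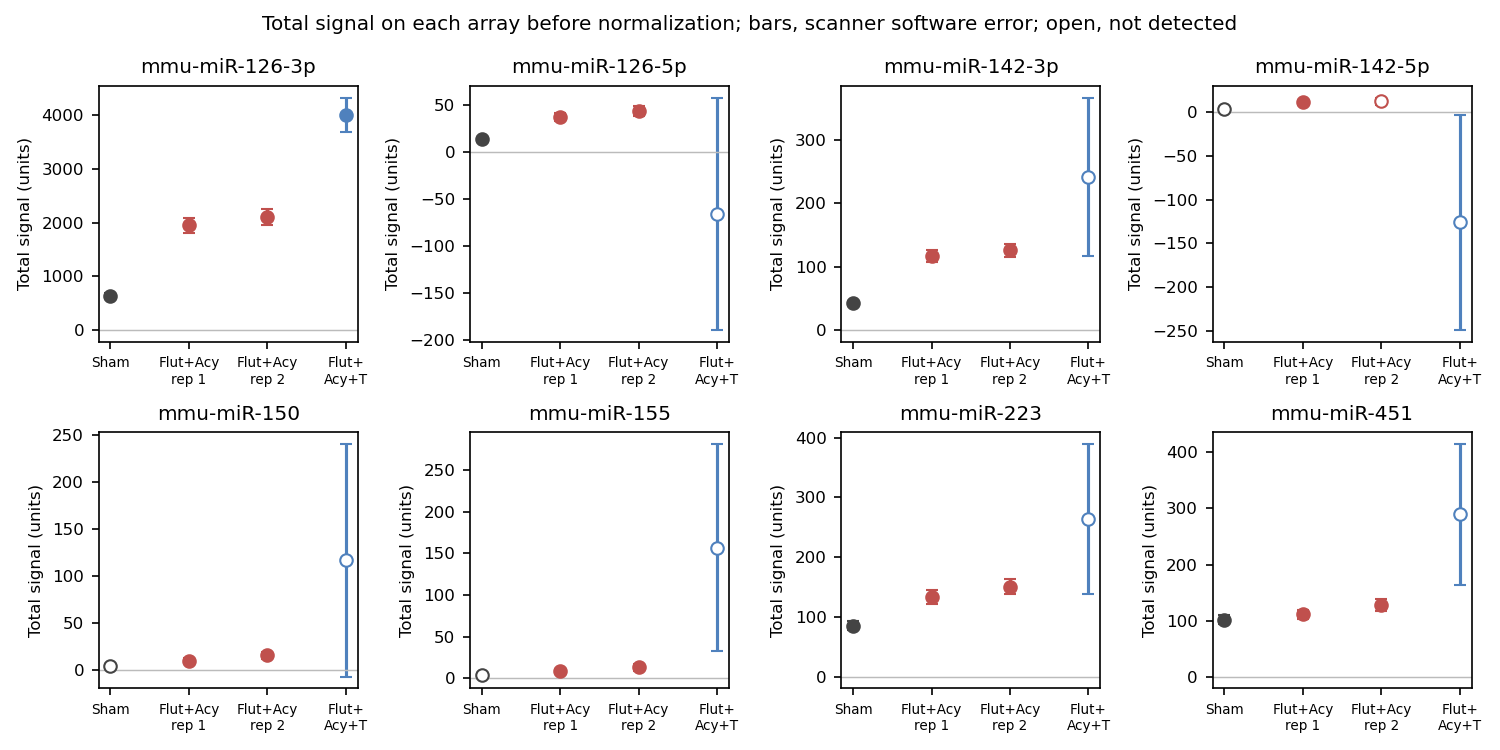
Total signal (units, linear, before normalization) of each of the 8 miRNAs on the 4 arrays; each point is 1 array, bars are the scanner software's error, and open points are not detected. The Flut+Acy points lie above Sham in all 8 panels, by little for miR-451 (111 and 128 against 102), and the bars of Flut+Acy+T are wide for all but miR-126-3p.

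The first comparison asks what androgen suppression did to these miRNAs, and the signals were first set beside each other without any normalization between arrays. For the 5 members detected on the Sham array and on each of the Flut+Acy arrays, each Flut+Acy signal was divided by that of Sham. The ratio was 3.07 and 3.32 for miR-126-3p, 2.77 and 3.24 for miR-126-5p, and 2.75 and 2.97 for miR-142-3p. These 3 lay close to the typical miRNA, whose ratio was 2.91-fold (the median of the 189 miRNAs detected on the same arrays). The ratio was 1.57 and 1.77 for miR-223 and 1.09 and 1.26 for miR-451. Of the 189 miRNAs, 36 had a lower mean log2 ratio than miR-223 and 6 had a lower one than miR-451, against 91 for miR-142-3p, 99 for miR-126-5p and 107 for miR-126-3p. On the log2 scale, the mean ratio was 0.74 for miR-223 and 0.23 for miR-451, while the middle 90% of the 189 lay between 0.37 and 4.74.

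**Figure D2:**
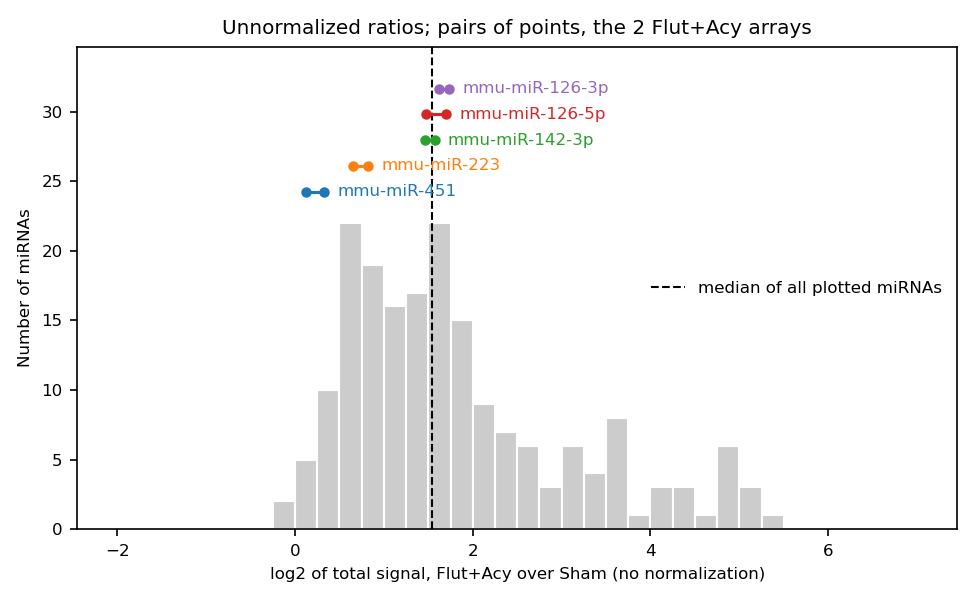
Histogram of the log2 ratio of total signal, Flut+Acy over Sham, without normalization, for the 189 miRNAs detected on these 3 arrays (vertical axis, number of miRNAs per bin), with the 2 Flut+Acy arrays of each detected member as joined points whose height carries no value. miR-126-3p, miR-126-5p and miR-142-3p lie at the median of 1.54 (dashed line), miR-223 lies below it and miR-451 near the low end.

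The difference between 2 members on the same arrays does not depend on any factor by which a whole array is scaled. From Sham to Flut+Acy, the ratio of miR-126-3p to miR-451 was higher by a log2 of 1.49 on the first Flut+Acy array and 1.40 on the second, a 2.72-fold shift on average, with scanner errors of 0.22. For miR-142-3p against miR-451 the shift was 1.33 and 1.24, or 2.44-fold, and for miR-126-3p against miR-223 it was 0.97 and 0.91, or 1.92-fold. miR-223 also shifted against miR-451, by 0.52 and 0.49 with scanner errors of 0.24. By contrast, the arms of miR-126 shifted against each other by 0.15 and 0.03, within the scanner error of 0.37 and 0.38, and miR-126-3p shifted against miR-142-3p by 0.16 on each array, also within the error of 0.24 and 0.23. The arms of miR-126 and miR-142-3p therefore kept close to each other, and miR-451 and miR-223 lagged behind them on both arrays. These are values of 1 Sham array, and no test of them can be made over Sham replicates.

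Both probes of a miRNA gave similar ratios for 4 of these 5. The mean log2 ratio was 0.23 and 0.24 for the probes of miR-451, 0.71 and 0.82 for miR-223, 1.39 and 1.57 for miR-142-3p, and 1.65 and 1.72 for miR-126-3p. The probes of miR-126-5p were further apart, at 1.12 and 1.70, and the one with the lower ratio had 0 of 10 spots well above background on every array.

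**Figure D3:**
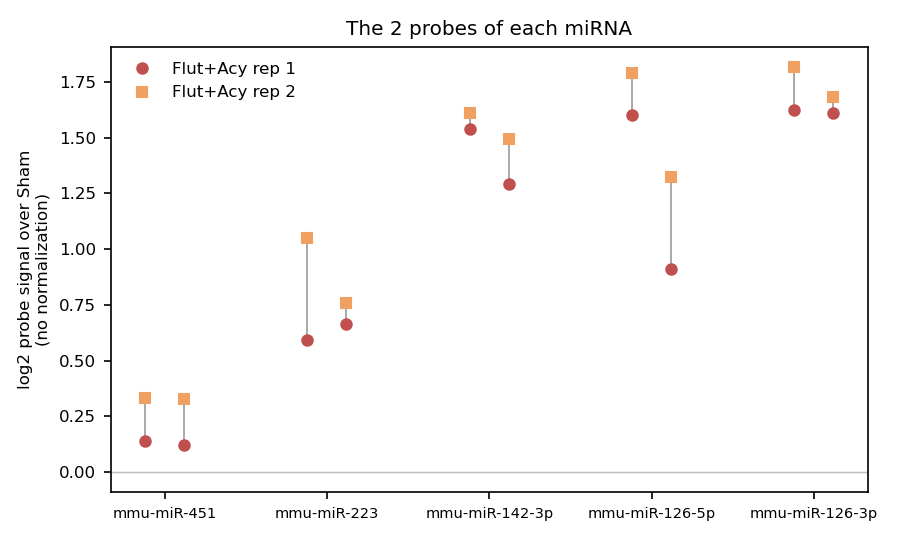
Log2 ratio of probe signal, Flut+Acy over Sham, without normalization (vertical axis), for the 2 probes of each of the 5 members detected in both groups; circles and squares are the 2 Flut+Acy arrays. Both probes of miR-451 lie lowest (means 0.23 and 0.24), those of miR-223 next (0.71 and 0.82), and those of miR-142-3p and miR-126-3p at 1.29 or above.

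After quantile normalization, which the methods name and which gives every array the same distribution of signals, most members were lower in Flut+Acy than in Sham. limma fitted the 3 groups together on log2 values, and a member was called at a Benjamini-Hochberg adjusted p under 0.05 over the 298 detected miRNAs. Of the 8 members, 5 were called lower, 0 higher, and 3 did not pass, beside 28.5% of all tested miRNAs called lower and 25.5% called higher. At an unadjusted limma p under 0.05 the counts of members were also 5 lower and 0 higher. A single-factor analysis of variance, which the methods name, passed 2, miR-126-5p and miR-223, beside 88 of all 298 miRNAs. That analysis gives 1 p over all 3 groups. For miR-126-5p it includes a negative signal on Flut+Acy+T that was set to the floor, so its pass is no test of Flut+Acy against Sham. The pass of miR-223 was fixed by its equal normalized values on both Flut+Acy arrays, which leave no residual spread. It is therefore no support for a change, and any other miRNA tied in this way passes by the same rule. The split of the calls followed the scaling. After 75th percentile scaling over the miRNAs that every array detected, 1 member was called higher and 2 lower, beside 141 of 298 miRNAs called in either direction. Without normalization between arrays 5 members were called higher and 0 lower, beside 218 of 298. The members' median log2 difference was -0.84, against -0.15 over all miRNAs tested, and over the 5 members detected on both sides it was -0.65. All spread in this fit comes from the 2 Flut+Acy arrays (1 residual degree of freedom) and is assumed to hold for the single arrays of the other groups. The adjusted p-values therefore describe these arrays, not the variation between mice.

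miR-451 fell the most of the 5 detected members. In normalized units it was 380 on Sham and 136 and 144 on Flut+Acy, and thus 2.71-fold lower in Flut+Acy (log2 difference -1.44, SE 0.06, limma adjusted p = 0.0223). miR-223 was at 365 on Sham and 170 on each Flut+Acy array, 2.15-fold lower (log2 difference -1.10, limma adjusted p = 0.00606). Its normalized values on both Flut+Acy arrays were equal because its rank was, so its standard error of 0.01 is set by the fit. The same tie fixed its call with no filter on detection, which is therefore no support for a change. miR-451 and miR-223 stayed lower under every scaling that was tried, with log2 differences of -1.97 to -0.96 and -1.48 to -0.61, and turned higher only with no normalization between arrays (0.23 and 0.74). The call of miR-451 was lost with no filter on detection (limma adjusted p = 0.115), and that of miR-223 in the table the authors deposited (limma adjusted p = 0.0527).

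miR-142-3p was at 222 units on Sham and 147 and 141 on Flut+Acy (log2 difference -0.63, SE 0.04, limma adjusted p = 0.0317). miR-126-5p was at 94.8 on Sham and 61.6 and 59.2 on Flut+Acy (log2 difference -0.65, SE 0.04, limma adjusted p = 0.0324). Both fell after quantile normalization, yet with each array scaled to its 75th percentile over the 76 miRNAs detected on all 4 arrays they were higher in Flut+Acy instead, by 0.17 and 0.23, and did not pass the test there (limma adjusted p = 0.163 and 0.173). Their direction thus depended on the scaling. The call of miR-142-3p was also lost with processed spot signals, normexp background correction and the deposited table (limma adjusted p of 0.113, 0.0685 and 0.0593), and both calls were lost with no filter on detection (limma adjusted p = 0.115). miR-126-3p had 1552 units on Sham and 2000 and 1879 on Flut+Acy, a log2 difference of 0.32 (SE 0.06, limma adjusted p = 0.102) that did not pass, and it turned to -0.51 with the 75th percentile taken over all mouse miRNAs and to -0.031 in the deposited table.

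The 3 members that Sham did not detect allow no fall to be measured. miR-155 was called lower (log2 difference -1.23, SE 0.11, limma adjusted p = 0.0430), from 36.9 units on Sham to 14.9 and 16.5 on Flut+Acy. Its Sham signal was not detected, so no fold is given. The call was also lost with either percentile scaling (limma adjusted p = 0.889 and 0.131), with no filter on detection (limma adjusted p = 0.141) and in the deposited table (limma adjusted p = 0.0675). miR-150 (-0.89, limma adjusted p = 0.167) and miR-142-5p (-0.79, limma adjusted p = 0.151) did not pass. The lowest normalized value flagged as detected was 23.6 units on Sham, above the values of these 3 members on both Flut+Acy arrays, which were between 14.9 and 21.0 units.

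The median difference of all tested miRNAs itself moved from -0.31 to 1.68 with the scaling, so the detected members were also set against that median under 9 ways of processing. miR-451 lay 0.91 to 1.86 log2 units below that median, and miR-223 lay 0.66 to 1.24 below it. miR-142-3p lay 0.16 to 0.49 below it and miR-126-5p 0.09 to 0.60 below it. miR-126-3p ranged from -0.20 to 0.54 around it and had no settled side.

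**Figure D4:**
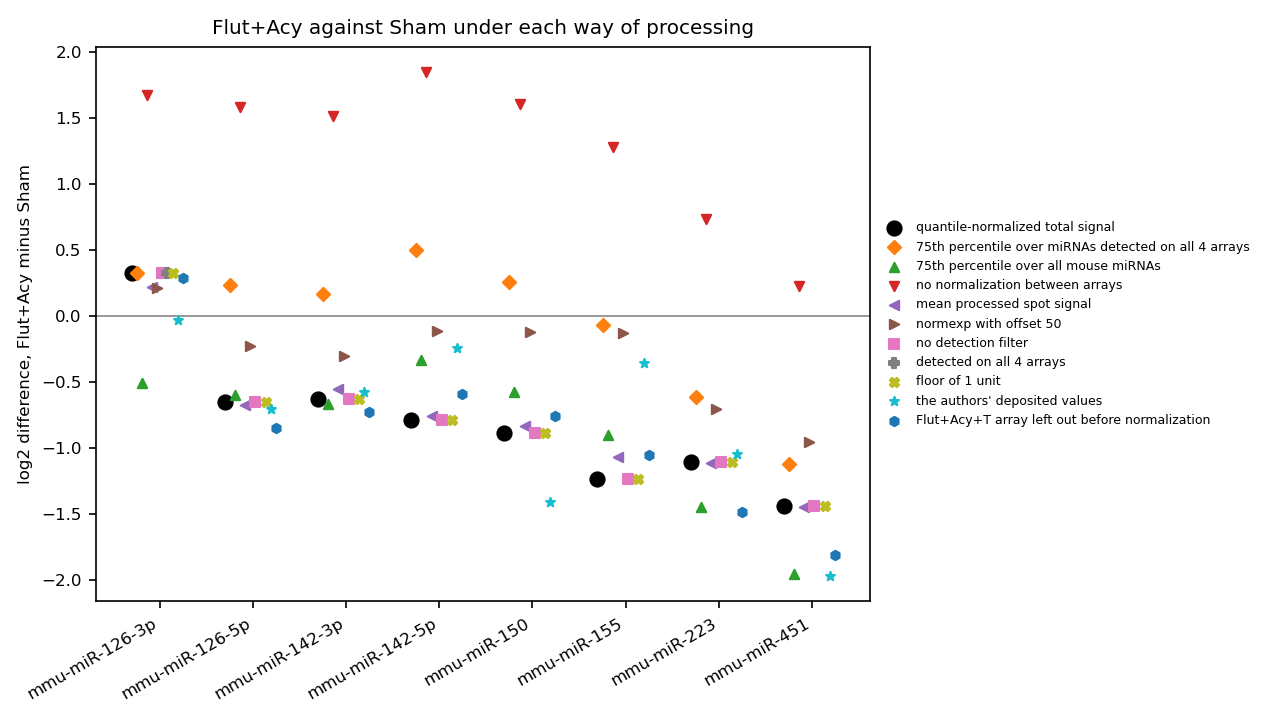
Log2 difference, Flut+Acy minus Sham (vertical axis), of each of the 8 members under the quantile normalization reported here (black circles) and under each alternative way of processing (other symbols). With no normalization all 8 lie above 0, and under every other setting miR-223 and miR-451 lie below 0 (at most -0.61 and -0.96) while miR-126-3p, miR-126-5p and miR-142-3p change sides.

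The second comparison asks what testosterone replacement did, and here only miR-126-3p was detected on every array of both groups. Its normalized signal was 3279 units on Flut+Acy+T against 2000 and 1879 on Flut+Acy, a log2 rise of 0.76 (SE 0.06, limma adjusted p = 0.0297), and it was 1.08 above Sham (SE 0.07, limma adjusted p = 0.0283). Without normalization it was 1.98-fold above Flut+Acy, where the typical of the 76 miRNAs detected on all arrays was 1.45-fold above, and 59 of the 76 had a lower ratio. Against Sham it was 6.31-fold higher, beside a median of 3.77-fold over the 76. With the 75th percentile over all mouse miRNAs, miR-126-3p was instead lower in Flut+Acy+T, by -0.64 against Flut+Acy and -1.15 against Sham, and both differences passed in that direction (limma adjusted p = 0.0125 and 0.00889). Both calls were lost with no filter on detection (limma adjusted p = 0.112 and 0.104), and that against Sham when only the 76 were tested (limma adjusted p = 0.0501). The Flut+Acy pair and the Flut+Acy+T array each enter more than 1 of these comparisons, so the differences are not independent.

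Against Flut+Acy, 2 of the 8 members were called higher and 3 lower on the testosterone array, beside 21.5% of all tested miRNAs called higher and 53.7% lower. The members' median log2 difference was -0.24, against -1.08 over all miRNAs tested. Against Sham, 1 member was called higher and 5 lower, beside 17.4 and 48.3% of all tested miRNAs, and the medians were -1.28 for the members and -0.47 for all. These splits turned with the scaling. With 75th percentile scaling over the miRNAs that every array detected, 6 members were called higher and 2 lower against Flut+Acy (beside 224 of 298 miRNAs called in either direction), and 4 higher and 2 lower against Sham (beside 180 of 298). Without normalization they were 6 higher and 2 lower against Flut+Acy (beside 213 of 298) and 6 higher and 1 lower against Sham (beside 236 of 298). Apart from miR-126-3p, each of these calls involves the Flut+Acy+T array's signal of a miRNA that it did not detect. The lowest detected normalized value on Flut+Acy+T was 103.5 units.

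For miR-451, miR-223 and miR-142-3p, whose own values on Flut+Acy+T lay above this, folds are given as point values on the quantile-normalized scale. They are not bounds, because undetected signals with errors of this size may understate or overstate the level on that array. miR-451 was 2.76-fold higher in Sham than in Flut+Acy+T (limma adjusted p = 0.0192), miR-223 3.14-fold (limma adjusted p = 0.00297) and miR-142-3p 2.13-fold (limma adjusted p = 0.0180). Flut+Acy was 1.46-fold above Flut+Acy+T for miR-223 (limma adjusted p = 0.00536) and 1.38-fold for miR-142-3p (limma adjusted p = 0.0298). For miR-451 this fold was 1.02 and the limma adjusted p was 0.754. These folds hold for quantile-normalized values alone. With 75th percentile scaling over the miRNAs that every array detected, the differences from Sham shrank to -0.36 for miR-451 (limma adjusted p = 0.0862) and -0.24 for miR-223 (limma adjusted p = 0.124), and miR-142-3p was called higher in Flut+Acy+T (0.64, limma adjusted p = 0.0261). In the same scaling miR-223 and miR-142-3p were called higher than in Flut+Acy (0.37 and 0.47, limma adjusted p = 0.0450 and 0.0256), as was miR-451 (0.76, limma adjusted p = 0.0189). Without normalization all 3 were called higher on the testosterone array than on the Flut+Acy arrays (limma adjusted p of 0.0193 to 0.0368) and the Sham array (limma adjusted p of 0.00631 to 0.0166). Each had an error of 125 units on the testosterone array and was not detected there. The direction of the difference for these 3 therefore depended on the scaling. The call of miR-142-3p was also lost with processed spot signals and with no filter on detection, against Flut+Acy (limma adjusted p = 0.165 and 0.112) and against Sham (limma adjusted p = 0.0731 and 0.0715). With normexp, miR-142-3p also lost its call against Flut+Acy, and with no filter on detection miR-451 lost its call against Sham. For miR-126-5p, miR-142-5p, miR-150 and miR-155 no fold against Flut+Acy+T could be given. The call of miR-126-5p lower (-3.47) rests on a negative signal set to the floor, and the call of miR-155 higher (1.97) on an undetected one.

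Other miRNAs known from blood, vessels or their neighbours were read from a list of 18 names, of which 14 were on the array and 12 were detected on at least 1 array. In Flut+Acy against Sham, 1 of the 12 was called higher, 6 were called lower and 5 did not pass, beside the 25.5% and 28.5% of all tested miRNAs, and their median log2 difference was -0.48. miR-144, the neighbour of miR-451 in its transcript, lay 141 bases from it in the array files' coordinates and was not detected on any array (total signals of -0.13, -0.59, -1.53 and -154 units). miR-486, another red cell miRNA, was not detected on Sham (5.02 units), gave 22.9 and 20.5 units on Flut+Acy, and did not pass (log2 difference -0.12, limma adjusted p = 0.811). Of the 3 red cell miRNAs, miR-451 was thus the only one that Sham detected.

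Among the lymphoid miRNAs of that list, miR-342-3p was the one called higher. Its total signal was 50.3 units on Sham, 537 and 628 with Flut+Acy and 836 with Flut+Acy+T, with a log2 difference of 1.02 after normalization (SE 0.04, limma adjusted p = 0.0224). It was higher in Flut+Acy under every setting, by 0.76 with normexp background correction up to 3.53 without normalization. The star arm of the lymphocyte hairpin, miR-150*, was detected on Sham, unlike miR-150. It gave 36.6 units on Sham, 40.4 and 53.2 with Flut+Acy and 25.3 with Flut+Acy+T (not detected), a log2 difference of -1.43 after normalization (SE 0.03, limma adjusted p = 0.0130). miR-221 (-1.47, limma adjusted p = 0.0224) and miR-218 (-1.29, limma adjusted p = 0.0205), both known from endothelium among other cells, also fell by over 2-fold. Without normalization miR-150*, miR-221 and miR-218 were higher in Flut+Acy instead (0.34, 0.49 and 0.70), and miR-218 was so in the deposited table too (0.47). Over the 8 leukocyte miRNAs listed, members among them, log2 differences ran from -1.23 to 1.02 with a median of -0.71. This median became 0.27 with 75th percentile scaling over the miRNAs that every array detected and 1.62 without normalization.

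miRNAs listed as markers of other cell types were read in the same comparison, in which 28.5% of all tested miRNAs were called lower and 25.5% higher. Of 6 miRNAs of smooth muscle and peritubular cells, 5 were detected on Sham and 5 of 5 were called lower in Flut+Acy, with log2 differences of -1.33 to -0.68 and a median of -1.22, which became 0.60 without normalization and stayed below 0 under the other settings. Their summed normalized signal was 5142 units on Sham, 2717 and 2860 with Flut+Acy and 3211 with Flut+Acy+T, and miR-206 was not detected on any array. Of 7 miRNAs of male germ cells, all 7 were detected on Sham, 5 were called higher and 2 did not pass, with a median of 2.36 that stayed above 0 under every setting. Their summed normalized signal was 2349 units on Sham, 10779 and 9569 with Flut+Acy and 2921 with Flut+Acy+T. The paper lists every miRNA of this germ cell set among its androgen-responsive miRNAs of Sertoli cells, as higher in Flut+Acy than in Sham. That list was drawn from the same arrays, so the rise of this set is no independent result under any setting. Whether the set marks germ cells in this RNA was not tested. Of the gonadal somatic pair, miR-202-5p was called higher without detection on Sham and miR-202-3p did not pass (-0.37). The part of these markers, or of the brightness and noise of the arrays, in the members' values was not tested.

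The miRNAs most like miR-126-3p were sought over the 4 arrays, among the 75 other miRNAs detected on all of them, by the root mean square distance between log2 values centred on each miRNA's own mean. let-7a was nearest (0.29), followed by miR-26a (0.30) and miR-342-3p (0.34). The total signal of let-7a was 2564 units on Sham, 4696 and 5789 with Flut+Acy and 7887 with Flut+Acy+T. With only 4 arrays, 3 of them in treated groups, this is a description of these arrays.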

How the data were processed

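RNA of purified Sertoli cells was hybridized to 4 Agilent miRNA arrays that shared 1 slide and 1 scan, which left no batch to block on. The authors deposited the output of Feature Extraction 9.5.3.1, with background-subtracted spot and total signals (intensity, linear scale, not normalized between arrays), and a quantile-normalized table of intensity values made in MATLAB. That table is linear and not centred, and its column medians were 2.37 (Sham), 2.74 and 2.94 (Flut+Acy) and 3.08 units (Flut+Acy+T). How its spots were combined is not stated, so it served as an alternative. Here quantile normalization was applied to the linear total signals of the 567 mouse miRNAs, which were then raised to at least 5.46 units and log2-transformed. This floor is the median, over the arrays, of each array's dimmest detected normalized value. limma 3.58.1 (R 4.3.3) fitted the 3 groups over the 298 miRNAs that any array detected. It was first run on simulated data with the same spread for every miRNA and array. The real arrays differ in brightness and noise, so that run does not vouch for the calls made here. The prior had 0.46 degrees of freedom. Where no array of a group detected a miRNA, the brighter group's mean was set against a value for the dim group. This was the higher of that group's own value and its array's lowest detected value. All folds given this way used the own value, so they are point values and not bounds. Tables were made with Python 3.11.15 and pandas 2.3.3.

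The number of arrays limits the precision. The members and lists were chosen with earlier results of these data known. The miRNAs named are the 8 members, those of a related list that changed by at least 2-fold and were detected in every Sham and Flut+Acy sample, miR-144 and miR-486, and up to 3 with the pattern most like a member detected on all arrays. The 12 alternatives were 3 scalings, processed spot signals, normexp with an offset of 50, 2 detection filters, a floor of 1 unit, the deposited table, the methods' single-factor analysis of variance and leaving out each Flut+Acy array. A further 2 were chosen after seeing the data, leaving out Flut+Acy+T before normalization and counting only members detected on both sides. The RefSeq sequences and gene positions are those of GRCm38.p6.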

Additional observations from a re-analysis of the deposited data

How the results depend on the processing

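The direction of all 8 members turned under at least 1 setting. In Flut+Acy against Sham, the members' median of -0.84 became 0.20 with 75th percentile scaling over the miRNAs that all 4 arrays detected, 1.55 without normalization and 0.32 with the filter on detection on all arrays, which kept only miR-126-3p. It was -0.63 with the 75th percentile over all mouse miRNAs, -0.80 with processed spot signals, -0.18 with normexp, -0.64 in the deposited table, -0.80 without Flut+Acy+T and -0.65 over the 5 members detected on both sides, and leaving out either Flut+Acy array gave -0.86 to -0.82. The 5 calls became 2 in the analysis of variance (1 p for all 3 groups; 88 of 298 miRNAs), 3 with the first scaling (1 higher, 2 lower), 5 without normalization (all higher), 1 without a filter (63 of 567 miRNAs), 0 of 1 with the filter on all arrays (limma, also 0 at an unadjusted p under 0.05) and 3 in the deposited table (120 of 298 miRNAs). Single members turned with the first scaling (miR-126-5p 0.23, miR-142-3p 0.17, miR-142-5p 0.49, miR-150 0.25), with the second (miR-126-3p -0.51), in the deposited table (miR-126-3p -0.031) and without normalization (miR-126-5p 1.58, miR-142-3p 1.52, miR-142-5p 1.84, miR-150 1.60, miR-155 1.28, miR-223 0.74, miR-451 0.23). miR-451 lost its call without a filter (limma adjusted p = 0.115), and miR-223 in the deposited table (limma adjusted p = 0.0527). In all 3 comparisons, the pass of miR-223 in the analysis of variance came from its equal normalized values on both Flut+Acy arrays. So did its call without a filter, which was the only member call there in Flut+Acy against Sham.

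In Flut+Acy+T against Flut+Acy, the median of -0.24 became 0.47 and -0.64 with the 2 percentile scalings, 0.99 without normalization, -0.15 with processed spot signals, -0.074 with normexp, 0.76 with the filter on all arrays and -1.13 in the deposited table, and -0.25 to -0.24 on leaving out a Flut+Acy array. The 5 calls (2 higher, 3 lower; 224 of 298 miRNAs) became 2 in the analysis of variance (88 of 298), 8 with the first scaling (6 higher, 2 lower; 224 of 298), 8 without normalization (6 higher, 2 lower; 213 of 298), 2 without a filter (both lower; 205 of 567), 1 with the filter on all arrays (higher; 42 of 76) and 8 in the deposited table (2 higher, 6 lower; 221 of 298). Members that turned were miR-142-3p (0.47 and 1.00), miR-223 (0.37 and 0.90) and miR-451 (0.76 and 1.28) with the first scaling and without normalization, miR-126-3p with the second (-0.64), miR-150 in the deposited table (-1.57) and miR-451 with processed spot signals (0.020), with normexp (0.0052) and on leaving out a Flut+Acy array (-0.065 to 0.015). In Flut+Acy+T against Sham, the median of -1.28 became 0.20 and -1.25 with the 2 scalings, 2.07 without normalization, -1.17 with processed spot signals, -0.39 with normexp, 1.08 with the filter on all arrays and -2.58 in the deposited table. The 6 calls (1 higher, 5 lower; 196 of 298 miRNAs) were 6 with the first scaling (4 higher, 2 lower; 180 of 298) and 7 without normalization (6 higher, 1 lower; 236 of 298), and became 2 in the analysis of variance, 2 without a filter (both lower; 187 of 567) and 0 of 1 with the filter on all arrays (limma, 1 at an unadjusted p under 0.05). Members that turned were miR-142-3p (0.64) with the first scaling, miR-126-3p (-1.15) with the second, miR-150 (-2.98) in the deposited table, and miR-142-3p (2.51), miR-223 (1.63) and miR-451 (1.51) without normalization. The causes were not tested.

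No paired analysis was possible because Sham and Flut+Acy+T have 1 array each, whose titles carry no replicate number, so no 2 groups share 2 numbers. With 1 Flut+Acy array left out no residual degrees of freedom remained, so values are given without calls. The 7 members that Flut+Acy+T did not detect had errors of 123 to 125 units there, against total signals of at most 150.4 units on the other arrays, which limits what that array can show.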
